A study of Mus musculus with 26 samples.

Results

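The TNF effect at 48 h was set against the TNF effect at 6 h in neurospheres (NSPs) that were differentiating into astrocytes. The quantity is the difference of differences on the log2 scale, TNF-treated minus untreated cells at 48 h, less TNF-treated minus untreated cells at 6 h. It is above 0 where a rise came late or grew, or where an early fall faded or turned into a rise. It is below 0 where a rise faded or turned into a fall, or where a fall came late or grew. It was taken over every probe set that carries a gene symbol, 23410 of 35556. Its value rests on 12 of the 26 arrays of the series, 3 in each of 4 groups, while the spread for its test was estimated from all 26. NSPs were grown from neural stem cells of the ventricular zone of C57BL/6J mouse embryos at embryonic day 14. The 4 groups were untreated cells at 6 h, cells given TNF at 50 ng/ml for 6 h, untreated cells at 48 h and cells given TNF at 50 ng/ml for 48 h. All 4 groups were plated on poly-L-ornithine in medium with fetal bovine serum, so the untreated cells were also exposed to serum and were themselves differentiating between 6 and 48 h. The series describes its replicates as biological. In such bulk RNA, fewer cells of a type and less RNA per cell cannot be told apart.

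TNF is a cytokine that binds receptors on glia and progenitors and releases the transcription factor NF-κB from its IκB inhibitors within minutes. Genes that need nothing but NF-κB or AP-1 are switched on first, and several of their products, among them IκB proteins and A20, act back on the pathway. Other genes respond only after new factors have been made, for example through secreted interferon, which acts through STAT and IRF proteins on antigen presentation, guanylate-binding and antiviral genes. Astrocytes are also a source of complement, of acute phase proteins and of chemokines in inflamed neural tissue.

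Log2 signals of the 12 arrays correlated with r between 0.958 and 0.996 over these probe sets, no 2 arrays were identical, and array medians ran from 7.54 to 7.75. Replicate 2 of TNF-treated cells at 6 h had the lowest median. The mean log2 signal of 31 astrocyte markers was 11.08 to 11.35 in untreated arrays at 6 h and 11.99 to 12.08 at 48 h, against 10.98 to 11.14 and 11.40 to 11.72 with TNF. Markers of microglia and macrophages had means of 6.62 to 6.95 in all 12 arrays, and those of endothelial cells 6.84 to 7.29, with TNF-treated and untreated arrays overlapping at both times.

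At 48 h TNF raised 241 probe sets (1.03% of those with a symbol) and lowered 92 (0.393%), while at 6 h it raised 103 (0.44%) and lowered 5 (0.0214%). A probe set was called when its q-value in limma's moderated test was under 0.05. Of the 103 that rose at 6 h, 45 also rose at 48 h, which is 43.7% of the 6 h list and 18.7% of the 48 h list. A gene called at 1 time and not at the other has not been shown to differ between them, and the difference itself was therefore tested. It was called for 34 probe sets, 28 higher at 48 h (0.12%) and 6 lower (0.0256%). In a fit of the 12 arrays alone, 15 of these calls were kept and 19 lost. Of the 58 probe sets called higher at 6 h alone, 3 had a called difference, and of the 196 called higher at 48 h alone, 28 had one. Differences between 2 TNF effects carry the noise of 4 groups, with a median SE of 0.202 against 0.143 for the 6 h effect, and 746 of the 23410 probe sets had an unadjusted p under 0.05. Of the 103 probe sets raised at 6 h, 81 had a smaller effect at 48 h. Of the 241 raised at 48 h, 218 had a larger effect there than at 6 h. Each list was chosen for a high effect on arrays that also enter the difference. Such a choice by itself favours these counts, so they are no evidence of a change between the times. In fits that leave out 1 of the 12 arrays, the difference was called higher for 15 to 30 probe sets and lower for 2 to 7. The higher count dropped to 18 without untreated replicate 1 at 6 h or TNF replicate 3 at 48 h, and to 15 without untreated replicate 3 at 48 h. The lower count was 2 without untreated replicates 2 or 3 at 6 h, untreated replicate 3 at 48 h, or TNF replicates 1 or 2 at 48 h, and 3 without untreated replicate 1 at 48 h. The 48 h rises dropped to 129 without untreated replicate 1 or TNF replicate 2 and to 142 and 153 without untreated and TNF replicate 3, the 48 h falls to 41 (untreated replicate 1), 50 (untreated replicate 3) and 27 (TNF replicate 2), and the 6 h rises to 63 without untreated replicate 3 and 66 without TNF replicate 1.

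All 28 higher calls belonged to 1 kind of response, a rise at 48 h with no call at 6 h. At 48 h every TNF-treated array was above every untreated array in all 28, as in 7.1% of all probe sets with a symbol. The 28 were chosen by calls on these arrays, and all 241 probe sets called higher at 48 h were separated in this way. At 6 h this was so in 5 of the 28 (4.9% of all), the groups overlapped in 21, and *Rsph4a* and *Tmem140* had every TNF-treated array below. The 6 lower calls were more varied. *Fosl1*, *Mylk2* and *Ptx3* rose at 6 h and were not called at 48 h, and *Egr2* rose at both times but less at 48 h. *Glycam1* fell at 48 h and was not called at 6 h, and *Kremen1* was called at neither of these times. Same-numbered arrays of a time deviated together, so a fit with the replicate number as a block was also made, in which 42 probe sets were higher and 20 lower, with all 34 calls kept. With this block 171 rose and 28 fell at 6 h, and 416 rose and 219 fell at 48 h. When the block was set within each time, 97 were higher and 67 lower, and *Aldh3a1* (q = 0.0513), *Mir146* (q = 0.0554) and *Ifitm1* (q = 0.0513) were no longer called. With the block within each time 560 rose and 237 fell at 6 h, and 919 rose and 650 fell at 48 h. A second probe set of *Ifitm1* (0.80, q = 0.775) was called in that fit (q = 0.0411). Of the 549 listed genes with no called difference, 7 were called with the replicate block, 21 with it within each time and 1 (*Aldh1a3*) with the block on the 12 arrays alone. Where such a gene is described below, its q-value under both blocks on all arrays is given.

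**Figure D1:**
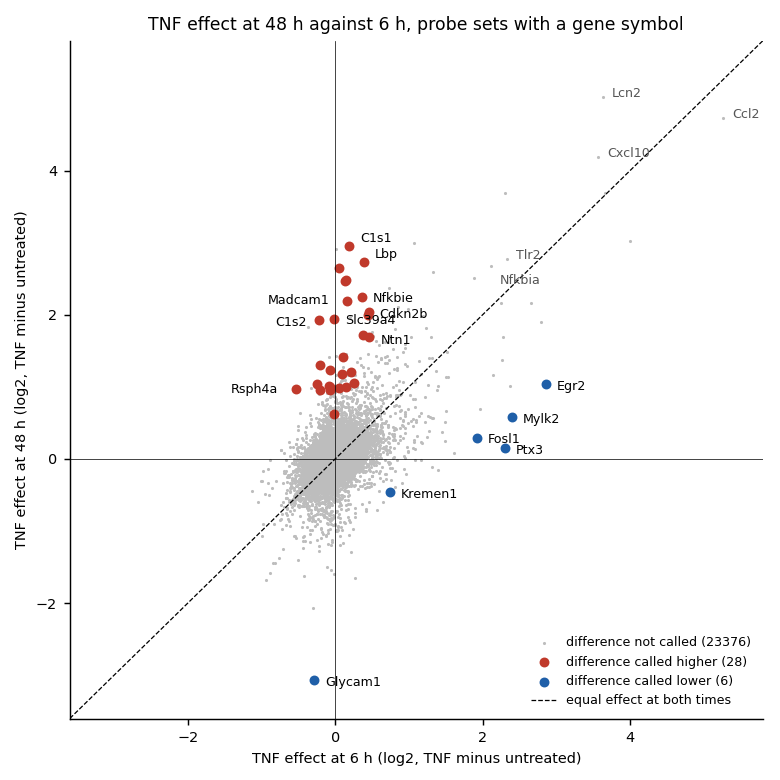
TNF effect at 48 h (y axis, log2) against 6 h (x axis, log2) for the probe sets with a gene symbol, with the dashed line at equal effects. The 28 red points (difference called higher) lie between −0.54 and 0.46 on the 6 h axis and above the line, the blue points (6, called lower) lie below it, and Lcn2, Ccl2, Cxcl10, Nfkbia and Tlr2 lie far out on both axes without a called difference.

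*Nfkbie* encodes IκBε, an inhibitor that binds NF-κB dimers and is itself a target of NF-κB. Its log2 signal was 7.62, 7.30 and 7.57 in untreated and 7.99, 7.85 and 7.73 in TNF-treated cells at 6 h, and 7.75, 7.82 and 7.69 against 9.85, 10.03 and 10.13 at 48 h. TNF-treated arrays lay above untreated arrays at both times, by a narrow margin at 6 h and by more than 2 log2 units at 48 h. The TNF effect was 0.36 (SE 0.128, q = 0.65) at 6 h and 2.25 (SE 0.128, q = 7.96e-10) at 48 h, a difference of 1.88 (SE 0.181, q = 2.45e-05), which is 3.69-fold. No other member had a smaller q-value. *Nfkbia*, the inhibitor IκBα, differed from this course, with TNF effects of 2.11 (q = 2.83e-08) at 6 h and 2.67 (q = 3.14e-10) at 48 h and a difference of 0.56 (SE 0.202, q = 1) that did not pass the test. Of 15 measured NF-κB subunits and inhibitors, 6 rose at 6 h, 6 rose at 48 h, and *Nfkbie* alone had a called difference, with a median difference over the list of 0.23 against −0.01 over all 19938 genes. *Nfkb2*, the precursor of p52, rose by 0.68 at 6 h and 1.33 at 48 h, a difference of 0.65 (SE 0.173, q = 0.423) that did not pass (q = 0.161 with the replicate block and 0.0462 with it within each time). *Nfkbiz*, a nuclear IκB protein, ran the other way, with 1.32 (q = 5.85e-05) at 6 h and 0.57 (q = 0.0903) at 48 h and a difference of −0.75 (SE 0.218, q = 0.615). Of 17 measured receptors, adaptors and IKK subunits, 3 rose at 6 h and 3 at 48 h, 0 had a called difference, and the list's median difference was 0.04.

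The primary transcript of miR-146a, a microRNA known to be switched on by NF-κB and to act on adaptors of the toll-like receptor pathway, was also among the late responses. The log2 signal of *Mir146* was 3.58, 3.82 and 3.74 in untreated and 3.71, 3.52 and 3.86 in TNF-treated cells at 6 h, and 3.68, 3.62 and 3.57 against 4.20, 4.28 and 4.24 at 48 h. All 3 TNF-treated arrays lay above all untreated arrays at 48 h, while the groups overlapped at 6 h. The difference was 0.64 (SE 0.125, q = 0.04995), the smallest called, on a probe set whose mean signal lies at percentile 2.55 of all probe sets on the array. It was kept only in the fits without untreated replicate 1 or TNF replicate 3 at 6 h, and its value over the 12 fits that leave out 1 array was 0.55 to 0.72. The array measures the hairpin's transcript and does not tell its mature arms apart. Their sequences from RefSeq (GRCm38.p6, chr11:43374397-43374461, minus strand) are shown because the seed, in capitals, sets which mRNAs each arm can pair with, and the seeds of both arms differ.
mmu-miR-146a-5p: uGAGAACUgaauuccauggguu
mmu-miR-146a-3p: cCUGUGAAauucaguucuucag

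Promoters, from 250 bases before to 50 bases after the start site, were in the RefSeq table for 17 of the 30 called probe sets with a single symbol, 14 higher and 3 lower. For a gene with several start sites only the first one listed was searched. These genes were *Egr2*, with 5 starts, and *C1s1*, *Chst15* and *Slc12a7*, with 2 each. The *Egr2* window used lies inside the gene, which spans 67534469 to 67542188 of chromosome 10. The windows used for *Chst15*, *Slc12a7* and *Ifitm1* also lie inside their genes, and the sequence before the start of these genes was not searched. The κB consensus was searched on both strands by its name, beside the AP-1 site TGANTCA and the interferon response core GAAANNGAA. The κB consensus stood in 2 of the 14 higher and 2 of the 3 lower promoters, against 8.18% of 27025 promoters, the AP-1 site in 1 of 14 and 0 of 3 (7.93%), and the interferon response core in 1 of 14 and 0 of 3 (8.57%). The 4 promoters with a κB match belonged to *Nfkbie* and *Madcam1*, which rose late, and to *Ptx3* and *Egr2*, which rose early, so matches were found on both sides of the contrast. They are printed on the gene's strand from GRCm38.p6, with matches in capitals. *Nfkbie* has a κB match 106 bases before its start site and an AP-1 match 156 bases before it, *Madcam1* has κB matches 83 and 70 bases before its start, and in *Ptx3* and *Egr2* 2 κB matches overlap by all but 1 base. A match is a stretch of letters and does not show that a factor binds there.
Nfkbie (chr17:45555450-45555749, plus strand): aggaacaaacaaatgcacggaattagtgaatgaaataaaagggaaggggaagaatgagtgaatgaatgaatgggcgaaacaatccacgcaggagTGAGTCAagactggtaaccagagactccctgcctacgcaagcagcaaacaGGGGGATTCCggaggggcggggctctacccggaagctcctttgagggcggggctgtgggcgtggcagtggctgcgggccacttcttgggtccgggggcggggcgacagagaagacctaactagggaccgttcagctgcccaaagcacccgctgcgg
Madcam1 (chr10:79664309-79664608, plus strand): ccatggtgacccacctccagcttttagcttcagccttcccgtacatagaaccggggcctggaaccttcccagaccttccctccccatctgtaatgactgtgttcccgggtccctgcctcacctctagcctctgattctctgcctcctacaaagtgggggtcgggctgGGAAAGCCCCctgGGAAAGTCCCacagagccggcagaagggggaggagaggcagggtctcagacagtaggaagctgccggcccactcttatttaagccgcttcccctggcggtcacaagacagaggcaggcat
Ptx3 (chr3:66219637-66219936, plus strand): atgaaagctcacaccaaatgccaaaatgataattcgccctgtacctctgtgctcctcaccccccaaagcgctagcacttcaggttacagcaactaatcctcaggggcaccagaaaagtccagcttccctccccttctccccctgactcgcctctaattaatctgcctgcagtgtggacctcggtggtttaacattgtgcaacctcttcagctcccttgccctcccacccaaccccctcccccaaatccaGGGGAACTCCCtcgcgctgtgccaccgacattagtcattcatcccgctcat
Egr2 (chr10:67535249-67535548, plus strand): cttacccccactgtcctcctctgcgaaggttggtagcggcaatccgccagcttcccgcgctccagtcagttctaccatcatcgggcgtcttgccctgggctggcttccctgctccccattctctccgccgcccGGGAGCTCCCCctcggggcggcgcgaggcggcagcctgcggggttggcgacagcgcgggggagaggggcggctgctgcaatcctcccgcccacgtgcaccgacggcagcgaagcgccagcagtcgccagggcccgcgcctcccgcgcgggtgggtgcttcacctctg

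Proteases of the first complement component rose late. C1r and C1s are the serine proteases that C1q carries and that start the classical pathway by cleaving C4 and C2. The log2 signal of *C1s1* (chromosome 6, 124530344 to 124542392 of GRCm38) was 5.01, 4.77 and 4.74 in untreated and 5.00, 5.14 and 4.95 in TNF-treated cells at 6 h, and 5.65, 6.17 and 5.50 against 8.57, 8.96 and 8.64 at 48 h. TNF-treated and untreated arrays overlapped at 6 h and were more than 2 log2 units apart at 48 h. Its TNF effect went from 0.19 to 2.95 (SE 0.234, q = 1.08e-07), a 7.75-fold rise, and the difference of 2.76 (SE 0.331, q = 0.000386) was the highest of all 23410 probe sets that passed the test. The log2 signal of *C1ra* (chromosome 6, 124512621 to 124523440) was 6.34, 6.52 and 6.38 in untreated and 6.13, 6.39 and 6.10 in TNF-treated cells at 6 h, and 6.29, 6.41 and 6.30 against 7.43, 7.81 and 7.66 at 48 h. The groups overlapped at 6 h, where TNF replicates 1 and 3 were below every untreated array, and the TNF-treated arrays of 48 h stood above the 9 other arrays. The difference was 1.51 (SE 0.188, q = 0.000407) for *C1ra*, 2.14 (SE 0.269, q = 0.00041) for *C1s2* (chromosome 6, 124624625 to 124636085) and 2.33 (SE 0.288, q = 0.000407) for a probe set shared by *C1rb* and *C1ra*. These genes lie next to each other and are close copies, so that probes may read more than 1 of them and the 4 values are not independent. All 4 calls were kept in each fit that leaves out 1 array. Of 18 measured complement genes 2 (*C1ra* and *C1s1*) rose at 48 h and in the difference. The difference was above 0 in 9 (47.3% of all 19938 genes), and its median was −0.02. *C4b*, which encodes complement C4, had −0.95 (q = 0.655 with the replicate block and 0.0373 with it within each time). Markers of microglia and macrophages, cells that also make complement, had a median difference of 0.04 with 0 of 12 called.

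*Lbp*, which encodes the carrier that hands lipopolysaccharide to CD14, had a log2 signal of 7.59, 7.31 and 7.25 in untreated and 7.72, 8.14 and 7.48 in TNF-treated cells at 6 h, and 9.92, 10.52 and 10.08 against 12.82, 13.00 and 12.89 at 48 h. It rose in untreated cells as well, by 2.79 (SE 0.238) from 6 to 48 h, and with TNF it rose by 5.12 (SE 0.238). All 3 TNF-treated arrays at 48 h were above all untreated arrays, and the difference of TNF effects was 2.34 (SE 0.337, q = 0.00205). *Slc39a4*, the zinc importer ZIP4, was at 7.38, 6.93 and 7.17 in untreated and 7.23, 7.09 and 7.12 in TNF-treated cells at 6 h, and 7.65, 7.53 and 7.43 against 9.03, 9.53 and 9.87 at 48 h. The groups overlapped at 6 h, and the difference was 1.95 (SE 0.244, q = 0.000407), with a 3.84-fold TNF effect at 48 h. Of 19 genes for acute phase proteins and for iron and zinc carriers, a list that holds *Lbp* but not *Slc39a4*, 3 rose at 6 h and 4 at 48 h, and *Lbp* was the 1 called difference. *Lcn2*, a carrier of iron siderophores with a very large response at both times (3.63 at 6 h and 5.03 at 48 h), had a difference of 1.40 (SE 0.492, q = 1) that did not pass, and its arrays spread widely.

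*Madcam1* encodes an addressin that binds the integrin α4β7 on lymphocytes, and its log2 signal was 7.20, 6.60 and 6.93 in untreated and 7.21, 7.06 and 6.96 in TNF-treated cells at 6 h, and 7.36, 6.80 and 6.71 against 8.53, 9.56 and 9.36 at 48 h. Replicate 1 of TNF-treated cells at 48 h was the lowest of its group but still above every untreated array. The TNF effect went from 0.16 to 2.19 (SE 0.21, q = 1.61e-06), a difference of 2.03 (SE 0.297, q = 0.00235). In a fit of the 12 arrays alone the q-value of this difference was 0.212. *Glycam1*, a mucin-like ligand of L-selectin that stands in the same list of 12 adhesion genes, gave the lowest called difference. Its log2 signal was 8.23, 7.69 and 8.13 in untreated and 7.59, 7.69 and 7.91 in TNF-treated cells at 6 h, and 12.74, 11.92 and 12.84 against 9.59, 8.66 and 10.04 at 48 h. Untreated cells rose steeply and TNF-treated cells much less, and no TNF-treated array at 48 h reached the lowest untreated array. The change from 6 to 48 h was 4.48 (SE 0.365) without TNF and 1.70 (SE 0.365) with it, which gave a TNF effect of −3.07 (SE 0.365, q = 2.94e-05) at 48 h and a difference of −2.79 (SE 0.517, q = 0.0343). This call was kept only in the fits without untreated replicate 2 or TNF replicate 3 at 48 h, with values of −3.09 to −2.40 over the 12 fits. *Vcam1*, the adhesion receptor that binds the integrin α4β1, rose at both times (1.33 and 2.59), and its difference of 1.26 (SE 0.347, q = 0.478) did not pass (q = 0.288 with the replicate block and 0.0362 with it within each time). The list as a whole had a median difference of −0.10.

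*Cdkn2b* encodes p15, an inhibitor of the cyclin D kinases CDK4 and CDK6. Its log2 signal was 8.41, 8.21 and 8.39 in untreated and 8.81, 8.90 and 8.66 in TNF-treated cells at 6 h, and 8.64, 8.89 and 8.79 against 10.73, 10.81 and 10.87 at 48 h. TNF-treated arrays were slightly above untreated arrays at 6 h and more than 1.8 log2 units above them at 48 h. The effect was 0.45 (SE 0.127, q = 0.268) at 6 h and 2.03 (SE 0.127, q = 3.79e-09) at 48 h, and the difference of 1.58 (SE 0.18, q = 0.000288) corresponds to 2.99-fold. Of 20 genes of mitosis and 20 of DNA replication, 0 were called at 6 h, at 48 h or in the difference, with median differences of 0.02 and −0.13. *Rrm1*, a subunit of ribonucleotide reductase in the latter list, had a difference of 0.89 (q = 1 with the replicate block and 0.024 with it within each time). *Mki67*, a marker of cycling cells, had TNF effects of −0.24 and −0.26 and a difference with an SE of 1.55, too wide to compare times.

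Genes that interferons are known to induce formed another group of late responses. *Oasl2*, a relative of the oligoadenylate synthetases of antiviral defence, was at 7.15, 6.85 and 6.91 in untreated and 6.77, 6.89 and 6.65 in TNF-treated cells at 6 h, and 7.15, 7.26 and 7.11 against 8.05, 8.32 and 8.02 at 48 h. At 6 h the groups overlapped, with TNF replicates 1 and 3 below every untreated array, and at 48 h TNF-treated arrays were above all untreated arrays. Its difference was 1.17 (SE 0.166, q = 0.00187). A probe set shared by *Gbp4*, *Gbp6*, *Gbp8*, *Gbp9*, *Gbp10* and *Gbp11*, a cluster of guanylate-binding proteins, was at 6.33, 6.41 and 6.17 in untreated and 6.25, 6.79 and 6.32 in TNF-treated cells at 6 h, and 7.17, 7.41 and 7.37 against 10.02, 9.86 and 9.50 at 48 h. It also rose without TNF, by 1.01, and the difference was 2.33 (SE 0.28, q = 0.000386). Probe sets of *Gbp9* and *Gbp11* alone had 1.05 (q = 0.736) and 0.74 (q = 0.878) and did not pass. With the replicate block within each time their q-values were 0.0155 and 0.0462. *Rtp4*, an interferon-induced chaperone of receptors, had 1.06 (SE 0.187, q = 0.0218), *Ifitm1*, a membrane protein that blocks virus entry, had 0.80 (SE 0.153, q = 0.0414), and a probe set shared by *Ifi47*, an interferon-induced GTPase, and *Olfr56* had 1.03 (SE 0.186, q = 0.0285). For these 3 all TNF-treated arrays lay above all untreated arrays at 48 h and the groups overlapped at 6 h. *Rtp4* was kept only without untreated replicate 3 or TNF replicate 2 at 6 h, untreated replicates 1 or 2 or TNF replicate 1 at 48 h (0.98 to 1.19 over the 12 fits). *Ifitm1* was kept only without TNF replicate 1 at 6 h (0.71 to 0.93), and the *Ifi47* probe set only without replicate 1 of untreated or of TNF-treated cells at 48 h (0.94 to 1.15). *BC023105* went from TNF effects of 0.06 to 2.65 (SE 0.257, q = 1.91e-06), a difference of 2.60 (SE 0.363, q = 0.00162), on low signals of 3.58 to 7.21. *Tmem140* was 1 of 2 late risers in which every TNF-treated array was below every untreated array at 6 h (−0.25 (q = 0.894)), and its difference was 1.29 (SE 0.173, q = 0.00104).

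Over the list of 33 interferon-stimulated genes, 1 rose at 6 h and 12 at 48 h, with *Oasl2* as the 1 called difference. The difference was above 0 in 24 (47.3% of all genes), and its median was 0.39 against −0.01 over all genes. *Ddx58*, the RNA sensor RIG-I, had 0.08 (q = 0.912) at 6 h and 1.08 (q = 0.0056) at 48 h, and *Gbp5* 0.67 (q = 0.218) and 1.62 (q = 1.43e-05). Their differences of 0.99 (SE 0.283, q = 0.551) and 0.95 (SE 0.258, q = 0.459) did not pass (q for *Ddx58* and *Gbp5* was 0.177 and 0.102 with the replicate block, and 0.0193 and 0.0305 with it within each time). *Irf8*, an interferon regulatory factor, went from 0.00 to 0.83, a difference of 0.83 (SE 0.175, q = 0.0946) that did not pass (q = 0.0299 with the replicate block and 0.0701 with it within each time). *Gbp4*, read by a probe set of its own, had 0.93 (SE 0.278, q = 0.678), and *Cxcl11*, a chemokine for T cells that interferon induces, had 1.03 (SE 0.243, q = 0.195). Neither passed the test. Of other genes in the list, *Ifit1* had 0.51 (q = 0.433 with the replicate block and 0.0399 with it within each time) and *Parp9* 0.70 (q = 0.274 with the replicate block and 0.0376 with it within each time).

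MHC class I molecules carry peptides to the cell surface that the immunoproteasome cuts and the TAP transporter imports. A probe set shared by *H2-D1*, *H2-K1* and *LOC547349* had a log2 signal of 8.95, 9.02 and 8.82 in untreated and 9.39, 9.65 and 9.09 in TNF-treated cells at 6 h, and 9.09, 9.84 and 9.22 against 11.03, 11.65 and 11.44 at 48 h. TNF-treated arrays were above untreated arrays at both times, with a gap of less than 0.1 at 6 h and more than 1 at 48 h. The difference was 1.54 (SE 0.291, q = 0.0378), and it was kept only in the fits without TNF replicate 2 at 6 h, untreated replicate 2 or TNF replicate 1 at 48 h (1.39 to 1.77 over the 12 fits). A second probe set of the same genes had 1.53 (q = 0.113) and did not pass (q = 0.00232 with the replicate block and 0.0108 with it within each time). Of 18 measured genes of MHC class I and antigen processing with a probe set of their own, 0 rose at 6 h and 9 at 48 h. Of these 18, 15 had a difference above 0 (47.3% of all genes), and the median difference was 0.50, the highest of the 35 lists. None of the 18 differences was called in limma's test. *H2-Q4* came closest in size, with 0.72 (q = 0.559) at 6 h and 2.37 (q = 4.03e-06) at 48 h, and its difference of 1.65 (SE 0.344, q = 0.0843) did not pass (q = 0.00518 with the replicate block and 0.0169 with it within each time). *Tap1* had 0.82 (SE 0.189, q = 0.17) and *Tap2* 0.81 (SE 0.18, q = 0.137). For *Tap1* a block gave q = 0.0145 with the replicate block and 0.0606 with it within each time. The immunoproteasome subunits *Psmb8*, *Psmb9* and *Psmb10* had 0.77 (SE 0.176, q = 0.159), 0.65 (SE 0.135, q = 0.0765) and 0.99 (SE 0.349, q = 1). For *Psmb9* a block gave q = 0.0188 with the replicate block and 0.0523 with it within each time, and *Tapbp*, the TAP binding protein tapasin, with a difference of 0.75, had q = 0.608 with the replicate block and 0.0488 with it within each time. Related class I genes share sequence, and their probe sets may read more than 1 of them.

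**Figure D2:**
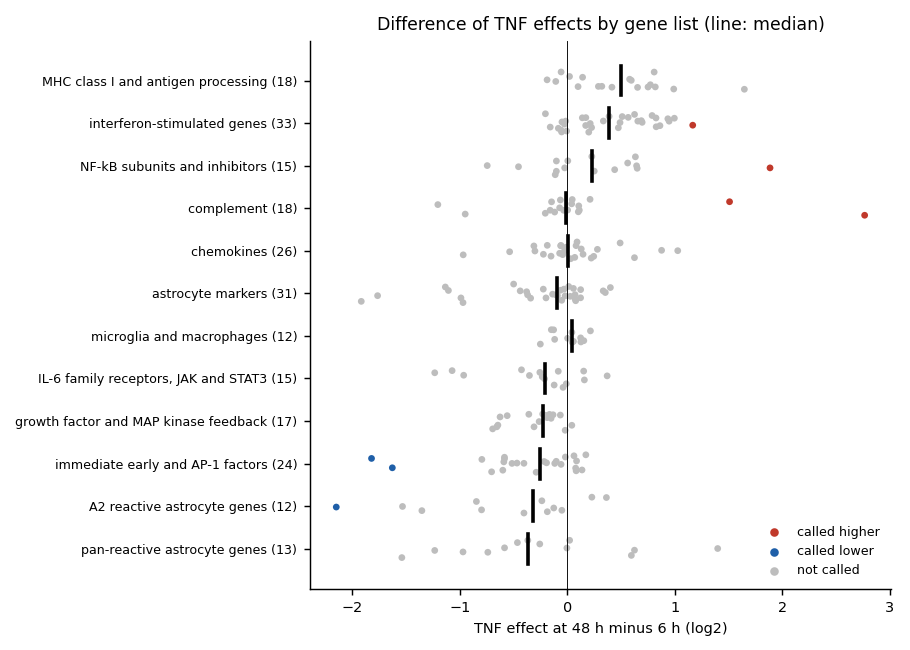
Difference of TNF effects, 48 h minus 6 h (x axis, log2), for the measured genes of 12 of the 35 lists, with 1 point per gene, a black line at the list's median and the number of genes in brackets. Medians run from 0.50 for MHC class I and antigen processing to −0.37 for pan-reactive astrocyte genes, and called members (red higher, blue lower) stand out in the complement, NF-κB, interferon, immediate early and A2 lists.

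The other late responses came from genes of varied function. *Reep1*, which shapes the endoplasmic reticulum, was at 9.76, 9.88 and 9.94 in untreated and 10.35, 10.14 and 10.23 in TNF-treated cells at 6 h, and 9.81, 9.87 and 9.66 against 11.59, 11.42 and 11.48 at 48 h, with separate groups at both times and a difference of 1.34 (SE 0.162, q = 0.000386). *Ntn1*, the guidance cue netrin-1, was at 10.71, 10.36 and 10.46 in untreated and 11.18, 10.87 and 10.87 in TNF-treated cells at 6 h, and 9.74, 10.07 and 9.73 against 11.32, 11.67 and 11.62 at 48 h. It fell in untreated cells by 0.66 on the log2 scale (SE 0.154) and rose by 0.56 (SE 0.154) with TNF, a difference of 1.22 (SE 0.218, q = 0.0247) that was kept only without untreated replicate 2 or TNF replicate 1, at 6 h or at 48 h (1.12 to 1.33 over the 12 fits). *Rsph4a*, a radial spoke protein of motile cilia, was at 5.88, 6.11 and 5.79 in untreated and 5.34, 5.37 and 5.45 in TNF-treated cells at 6 h, and 7.26, 8.22 and 7.85 against 8.75, 8.98 and 8.48 at 48 h. TNF-treated arrays were below untreated arrays at 6 h and above them at 48 h, while the gene rose in both treatments. Its difference of 1.50 (SE 0.283, q = 0.0378) was kept only without untreated replicate 2 or TNF replicate 3 at 48 h (1.24 to 1.72).

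Among transporters, *Slc2a6*, a glucose transporter, had a difference of 1.31 (SE 0.251, q = 0.0414), *Slc43a3*, a nucleobase transporter, 1.08 (SE 0.184, q = 0.0149), and *Slc12a7*, a potassium chloride cotransporter, 0.93 (SE 0.145, q = 0.00527). *Slc2a6* was kept only without TNF replicate 2 at 6 h or replicate 1 at 48 h (1.18 to 1.46), and *Slc43a3* was lost without replicate 1 of either treatment at 6 h, untreated replicates 2 or 3 or TNF replicate 3 at 48 h (0.999 to 1.16). The q-value of *Slc12a7* was 0.158 in a fit of the 12 arrays alone and 0.055 after cyclic loess. For *Slc12a7* the log2 signal was 7.25, 7.38 and 7.28 in untreated and 7.19, 7.60 and 7.26 in TNF-treated cells at 6 h, and 7.65, 7.57 and 7.50 against 8.59, 8.48 and 8.59 at 48 h, with all TNF-treated arrays of 48 h at 8.48 or above and all others at 7.65 or below. *Chst15*, a sulfotransferase of chondroitin sulfate, had 0.99 (SE 0.163, q = 0.00983), lost without untreated replicate 3 at 48 h (0.90 to 1.09). Its q-value was 0.183 in a fit of the 12 arrays alone and 0.0835 after cyclic loess. *Cspg5*, a neural proteoglycan, had 0.85 (SE 0.165, q = 0.0499), kept only without TNF replicate 2 at 6 h (0.74 to 0.96). *Rgs9*, which speeds the shut-off of G proteins, had 1.30 (SE 0.212, q = 0.00965), lost without untreated replicate 3 at 48 h (1.20 to 1.47), and *Aldh3a1*, an aldehyde dehydrogenase, 1.09 (SE 0.204, q = 0.0352), kept only without untreated replicate 3 at 6 h or replicate 1 of either treatment at 48 h (0.94 to 1.26).

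**Figure D3:**
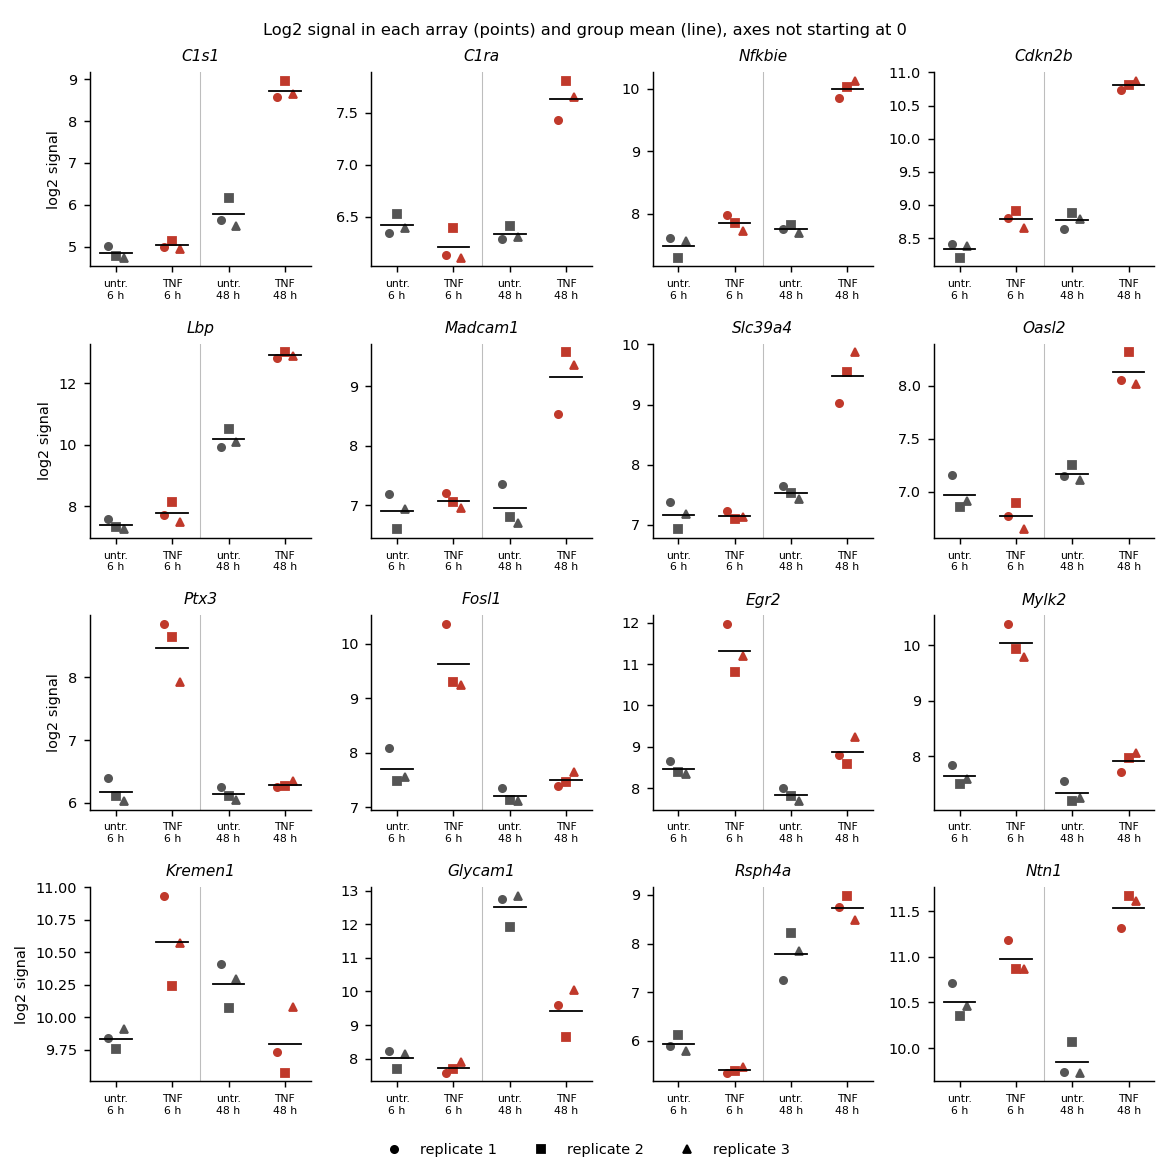
Log2 signal (y axis, which does not start at 0) of 16 called members in each of the 12 arrays, with grey points for untreated and red points for TNF-treated cells, 1 marker shape per replicate number and a line at the group mean. In the upper 8 panels the TNF-treated arrays of 48 h stand above all others, in Ptx3, Fosl1, Egr2 and Mylk2 those of 6 h do, and in Glycam1 the untreated arrays of 48 h do.

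Among the called differences, 3 probe sets rose at 6 h with no call at 48 h, and 1 rose at both times but less at 48 h. With the replicate block these counts were 8 and 1, and with it within each time 29 and 5. *Ptx3*, a secreted pattern recognition protein counted among A2 reactive astrocyte genes, had a log2 signal of 6.40, 6.10 and 6.03 in untreated and 8.85, 8.65 and 7.93 in TNF-treated cells at 6 h, and 6.25, 6.11 and 6.05 against 6.24, 6.27 and 6.34 at 48 h. At 6 h every TNF-treated array was above every untreated array, and at 48 h the groups overlapped at the untreated level. The TNF effect was 2.30 (SE 0.212, q = 1.86e-06) at 6 h, 4.92-fold, and 0.15 (SE 0.212, q = 0.831) at 48 h, and the difference was −2.15 (SE 0.3, q = 0.00162). Of 12 A2 genes, 5 rose at 6 h and 1 at 48 h, 2 had a difference above 0 (47.3% of all genes), and the median difference was −0.32. *Tm4sf1*, a membrane protein, and *Ptgs2*, the prostaglandin synthase COX-2, followed in size with −1.53 (SE 0.435, q = 0.551) and −1.35 (SE 0.529, q = 1), and neither passed the test.

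*Fosl1* encodes FRA-1, a FOS family partner in AP-1, and *Egr2* a zinc finger factor, both of them known as immediate early genes. *Fosl1* was at 8.08, 7.48 and 7.56 in untreated and 10.36, 9.30 and 9.24 in TNF-treated cells at 6 h, and 7.36, 7.13 and 7.12 against 7.38, 7.47 and 7.65 at 48 h. Replicate 1 of TNF-treated cells was the highest array at 6 h, and at 48 h all arrays of both groups were below 8.08, the value of untreated replicate 1 at 6 h. The TNF effect was 1.93 (SE 0.212, q = 2.68e-05) at 6 h and 0.30 (SE 0.212, q = 0.801) at 48 h, a difference of −1.63 (SE 0.299, q = 0.0333). *Egr2* was at 8.67, 8.39 and 8.35 in untreated and 11.97, 10.82 and 11.19 in TNF-treated cells at 6 h, and 7.997, 7.81 and 7.69 against 8.80, 8.57 and 9.23 at 48 h. TNF-treated arrays were above untreated arrays at both times, but the gap narrowed, with effects of 2.86 (SE 0.238, q = 5.56e-07) at 6 h and 1.03 (SE 0.238, q = 0.0325) at 48 h and a difference of −1.82 (SE 0.337, q = 0.0341). *Fosl1* was kept only in the fits without untreated replicate 1 or without any 1 of the TNF-treated arrays at 6 h (−1.82 to −1.26 over the 12 fits). *Egr2* was kept only without TNF replicate 2 at 6 h or replicate 3 at 48 h (−2.07 to −1.50). Of 24 immediate early and AP-1 genes, 5 rose at 6 h and 2 at 48 h. The difference was above 0 in 6 (47.3% of all genes), and its median was −0.25. *Klf4*, a zinc finger factor, had −0.58 (q = 0.589 with the replicate block and 0.0427 with it within each time). *Atf3*, another AP-1 partner, rose by 1.22 at 6 h, and its difference of −0.70 (SE 0.274, q = 1) did not pass (q = 0.61 with the replicate block and 0.0427 with it within each time). Of 17 genes of growth factor and MAP kinase feedback, 1 rose at 6 h and 1 at 48 h. The difference was above 0 in 1 (47.3% of all genes), with a median of −0.23. *Spry1*, *Dusp5* and *Vgf* had −0.69 (SE 0.471, q = 1), −0.66 (SE 0.297, q = 1) and −0.65 (SE 0.221, q = 1), none of which passed.

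*Mylk2*, the myosin light chain kinase of skeletal muscle, had a log2 signal of 7.84, 7.49 and 7.60 in untreated and 10.38, 9.93 and 9.80 in TNF-treated cells at 6 h, and 7.56, 7.19 and 7.25 against 7.72, 7.96 and 8.05 at 48 h. TNF-treated arrays were more than 1.9 log2 units above untreated arrays at 6 h and less than 1 above them at 48 h. Its TNF effect was 2.39 (SE 0.183, q = 2.12e-07) at 6 h, 3.37 (q = 4.87e-10) at 24 h, 0.58 (SE 0.183, q = 0.217) at 48 h and 0.25 (q = 0.842) at 72 h, so that the highest value was at 24 h. The difference between 48 and 6 h was −1.82 (SE 0.259, q = 0.00187), and the call was kept in each fit that leaves out 1 array. *Kremen1*, a receptor of the Wnt inhibitor Dickkopf, was at 9.84, 9.76 and 9.91 in untreated and 10.94, 10.24 and 10.57 in TNF-treated cells at 6 h, and 10.41, 10.07 and 10.29 against 9.73, 9.57 and 10.08 at 48 h. TNF-treated arrays were above untreated arrays at 6 h, and overlapped with them at 48 h with the lower mean. Neither effect passed the test (0.75 (q = 0.0539) and −0.46 (q = 0.353)), while the difference did, at −1.21 (SE 0.233, q = 0.0435). It was kept only without TNF replicate 2 at 6 h, untreated replicate 2 or TNF replicate 3 at 48 h (−1.38 to −1.03).

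The difference of TNF effects equals the change from 6 to 48 h with TNF less the same change without it, and it can arise from either side. In the 28 late responses the median change was 0.15 without TNF and 1.39 with TNF, and in 22 of them the untreated change was smaller than 0.5 in size. *Lbp*, *Rsph4a* and the *Gbp* probe set rose by more than 1 in untreated cells too, and *Ntn1* was the lowest, at −0.66. In *Ptx3*, *Fosl1*, *Egr2* and *Mylk2* untreated cells changed by −0.64 to −0.04, against −2.46 to −2.13 with TNF. *Glycam1* and *Ntn1* had their larger change, in size, in untreated cells.

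**Figure D4:**
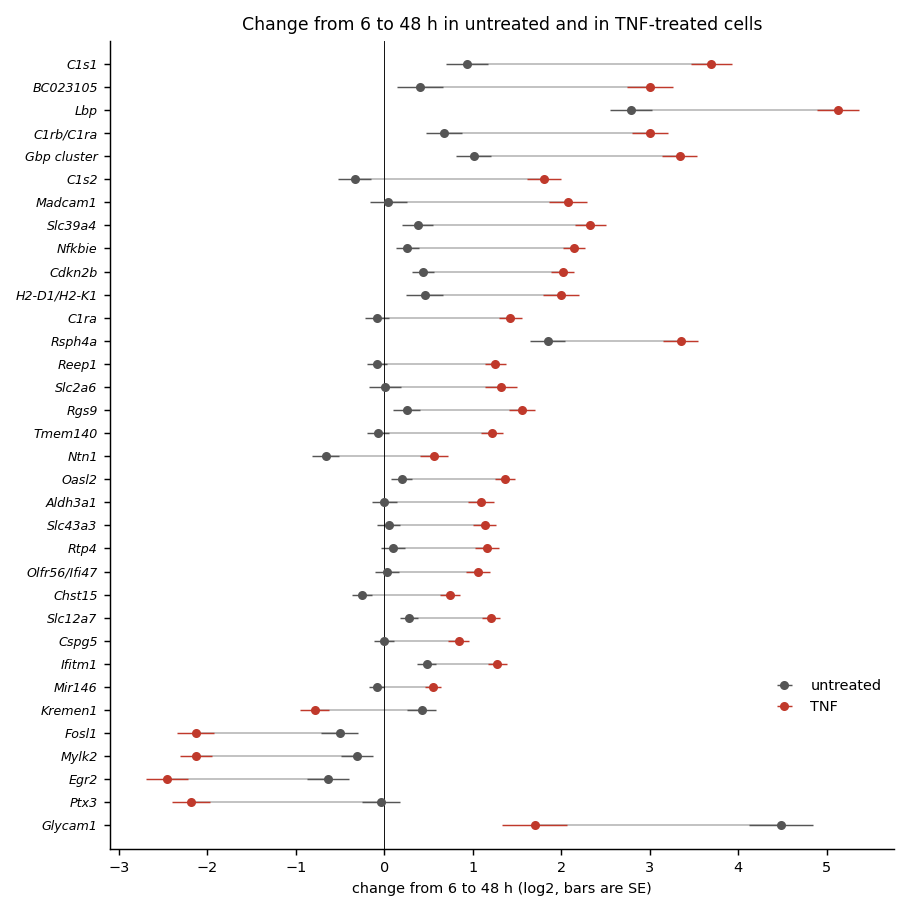
Change from 6 to 48 h (x axis, log2, bars are SE) in untreated (grey) and TNF-treated cells (red) for the 34 called probe sets, ordered by the difference. Grey points lie near 0 for most late responses, and apart from it for Lbp (2.79), Rsph4a (1.85) and Glycam1 (4.48).

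The arrays of 24 and 72 h gave values for the same members. They do not enter the value of the difference, but they do enter the spread used in its test. At 6, 24, 48 and 72 h the median TNF effect of the 28 late responses was 0.10, 0.84, 1.36 and 1.44. Of the 28, 24 were called higher at 24 h (0.88% of all probe sets with a symbol) and 25 at 72 h (0.786%), and 26 had a 24 h effect between those of 6 and 48 h. *Lbp* and *Aldh3a1* were the exceptions, with 3.16 and 1.46 at 24 h. Of all 241 probe sets called higher at 48 h, which include the 28, 133 were called higher at 24 h and 143 at 72 h. With the effects of 72 h and 24 h set against each other, 72 h minus 24 h, 24 of the 28 were above 0. This was so for 61% of the 241 and for 45.6% of all members. Over all members this second difference was called higher for 2 probe sets (0.00854%), and both are late responses. They were *Nfkbie*, with 1.22 (q = 0.0179), and *Slc12a7*, with 0.92 (q = 0.0235). It was called lower for 7 (0.0299%), of which 1 is *Mylk2*, with −3.12 (q = 1.09e-05). TNF at 72 h has 2 arrays.

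**Figure D5:**
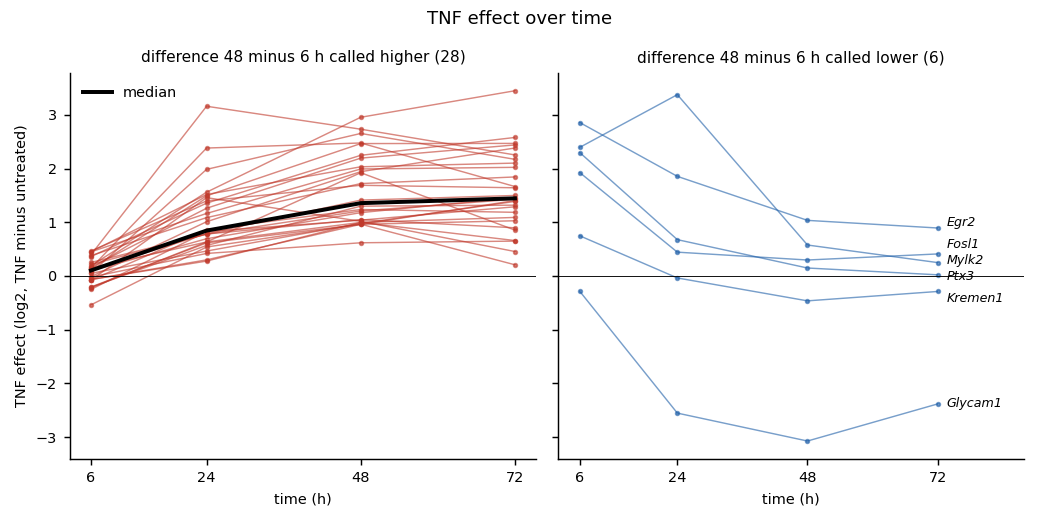
TNF effect (y axis, log2) at 6, 24, 48 and 72 h (x axis) of the 28 probe sets with a higher (left, black line at their median) and the 6 with a lower difference of effects (right). The median climbs from 0.10 to 1.44 on the left, and on the right Mylk2 peaks at 24 h with 3.37 while Glycam1 reaches −3.07 at 48 h.

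Several large TNF effects were present at both times with no called difference. *Ccl2*, a chemokine for monocytes, had 5.26 at 6 h and 4.73 at 48 h, a difference of −0.54 (SE 0.5), and *Ccl7* had 3.99 and 3.02, a difference of −0.97 (SE 0.495). *Cxcl10*, a chemokine for T cells, had 0.62 (SE 0.297), and the lipoprotein receptor *Tlr2* 0.45 (SE 0.281), and none of these passed the test. The arrays of *Ccl2* and *Ccl7* spread widely, and a difference near 1 was not detectable for them with 3 arrays per group. Of 26 chemokines, 3 rose at 6 h and 5 at 48 h, 0 had a called difference, and the median was 0.01. *Casp4*, an inflammatory caspase, rose at both times (2.30 and 3.69), and its difference of 1.39 (SE 0.379, q = 0.459) did not pass (q = 0.0935 with the replicate block and 0.0462 with it within each time). *Tslp*, a cytokine, fell back from 2.15 to 1.17, with a difference of −0.98 (SE 0.376, q = 1), and *Tnfsf18*, a ligand of the TNF family, went from 0.99 (q = 0.355) to 2.08 (q = 0.000255), with 1.09 (SE 0.414, q = 1).

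Of 13 pan-reactive astrocyte genes, 5 rose at 6 h and 5 at 48 h. The difference was above 0 in 4 (47.3% of all genes), and its median was −0.37, with 0 called. Of 15 genes for receptors of the IL-6 family, JAK kinases and STAT3, 4 rose at 6 h and 1 at 48 h. The difference was above 0 in 3 (47.3% of all genes), and its median was −0.21. *Osmr*, the oncostatin M receptor, which stands in both lists, rose at 6 h by 1.49 (q = 0.00665) and was at 0.25 at 48 h. Its difference of −1.23 (SE 0.368, q = 0.68) did not pass (q = 0.313 with the replicate block and 0.0431 with it within each time). *Socs3*, the feedback inhibitor of STAT3, had 0.94 (q = 0.0185) at 6 h, −0.13 (q = 0.829) at 48 h and a difference of −1.07 (SE 0.26, q = 0.227), and *Stat3* had −0.23 (SE 0.136). *Adamts5*, a protease of proteoglycans, rose at 6 h by 1.08 (q = 0.0014), and its difference of −0.95 (SE 0.231, q = 0.233) did not pass (q = 0.0935 with the replicate block and 0.0112 with it within each time).

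In the list of 31 astrocyte markers 0 fell at 6 h and 3 at 48 h. The difference was above 0 in 11 (47.3% of all genes), and its median was −0.09, with 0 called. *Aldh1a1*, an enzyme of retinoic acid synthesis, went from −0.30 (q = 0.896) at 6 h to −2.06 (q = 0.0106) at 48 h. Its difference of −1.76 (SE 0.581, q = 0.939) did not pass (q = 0.0076 with the replicate block and 0.0103 with it within each time). *Slc14a1*, a urea transporter, had −1.92 (SE 0.584, q = 0.731) and *Gfap*, the intermediate filament of astrocytes, −0.97 (SE 0.371, q = 1). For *Slc14a1* a block gave q = 0.0493 with the replicate block and 0.0585 with it within each time, and for *Gfap* q = 0.88 with the replicate block and 0.0169 with it within each time. These genes rose in untreated cells from 6 to 48 h, by 2.50, 4.07 and 2.03, and by 0.73, 2.15 and 1.06 with TNF. *Aldh1a3*, a related enzyme, ran a transient course instead, with 1.31 (q = 0.0018) at 6 h and −0.12 (q = 0.839) at 48 h. Its difference of −1.43 (SE 0.286, q = 0.0588) was just outside the threshold (q = 0.00311 with the replicate block and 0.0036 with it within each time). The lists of stem and progenitor, neuronal, oligodendrocyte, endothelial and mural markers and of the Notch and BMP pathways had 0 called at 6 h, at 48 h or in the difference, with median differences of −0.08 to 0.12. *Hopx*, a homeodomain protein in the stem and progenitor list, had −1.20 (q = 0.288 with the replicate block and 0.0261 with it within each time). *Cd44*, *Prom1*, *Hes1*, *Id1*, *Id3* and *Neurod1* had −0.46 (SE 0.411), −0.27 (SE 0.319), 0.08 (SE 0.261), −0.19 (SE 0.218), −0.24 (SE 0.204) and −0.06 (SE 0.297), and none passed.

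The last members inside the threshold were *Mir146* (q = 0.04995) and *Cspg5* (q = 0.0499). The first outside it were *Lix1* (1.77 (SE 0.35, q = 0.0557)), *Trim9* (−0.68 (SE 0.135, q = 0.0588)), *Aldh1a3*, *Nupr1* (1.26 (SE 0.253, q = 0.0588)) and *Prex2* (−1.05 (SE 0.211, q = 0.0595)), all 5 of which were called with both blocks on all arrays. With the replicate block and with it within each time, q was 0.0035 and 0.0306 for *Lix1*, 0.0299 and 0.0108 for *Trim9*, 0.0168 and 0.0141 for *Nupr1* and 0.00103 and 0.0051 for *Prex2*. *Lgi2*, a secreted protein of the nervous system, had the largest difference of all members with a symbol, 2.89, larger than that of *C1s1*, but an SE of 0.67 and q = 0.172. A block gave q = 0.00278 with the replicate block and 0.00276 with it within each time. The size of a difference and its call therefore do not rank members in the same order.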

How the data were processed

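The authors deposited log2 signals that they had computed by RMA from Affymetrix mouse gene arrays (oligo package and R 3.3.1, per the submitters' processing notes). RMA subtracts background, gives all arrays the same distribution and combines probes into probe sets, and it compresses differences of weak signals. The values were used as deposited. limma 3.58.1 in R 4.3.3 fitted 9 group means over all 26 arrays with moderated, two-sided tests. q-values over all 35556 probe sets, in an own implementation of the qvalue smoother, were called under 0.05. For the difference, the smoother put the share of true nulls at 1, so that these q-values equal Benjamini-Hochberg values. Of the probe sets, 21789 have 1 symbol, of which 21698 matched a GRCm38.p6 table, 1621 have several and 12146 none. The precision is limited by 3 arrays per group. The q-values rest on the spread between replicate arrays within the 9 groups, estimated over all 26 arrays.

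The members, the lists (35, with 559 of 611 genes measured, each by its brightest probe set) and the tests were chosen with earlier results of these data known. Named were the 20 highest and 20 lowest called single-symbol probe sets, up to 6 per class of response, up to 4 per list, and genes the paper names. *Irf8*, *Psmb9*, *Lix1*, *Trim9*, *Nupr1*, *Prex2*, *Lgi2*, *Tapbp*, *C4b*, *Rrm1*, *Hopx*, *Ifit1*, *Parp9*, *Klf4*, *Timp3* and *Pgm2*, the called probe sets with several symbols and *Chst15*, *Slc12a7*, *Cspg5*, *Ifitm1* and *Mir146* were added after their values were seen. So were *Gbp9*, *Gbp11* and the second probe set of *H2-D1* and *H2-K1*. Deviations of same-numbered arrays from their group means correlated over probe sets with a symbol at 0.857, 0.804 and 0.54 at 6 h and at 0.478, 0.733 and 0.159 at 48 h. All exceed 0.1, so arrays of a number may be paired within a time. The reported calls come from the fit without this pairing, and only the fits with a block take the numbers into account. Between times replicate 3 of TNF-treated cells had −0.321. Alternatives were a minimum size of 1, q under 0.01, Benjamini-Hochberg, only the 12 arrays, cyclic loess, array weights, an intensity trend with robust prior, the replicate block with all or 12 arrays, no dim probe sets (lowest 40 percent), single symbols, gene means and each array left out in turn. RT-PCR and protein data were not analysed here.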

Additional observations from a re-analysis of the deposited data

Results flagged for a closer look

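The test of the difference itself set apart 34 probe sets with a symbol whose TNF effect at 48 h differed from that at 6 h, all in log2 units and at q-values under 0.05 in limma. The 4 probe sets of complement proteases had differences of 2.76 (*C1s1*), 2.33 (*C1rb* and *C1ra*), 2.14 (*C1s2*) and 1.51 (*C1ra*). For interferon-induced and related genes they were 2.60 (*BC023105*), 2.33 (the *Gbp* cluster), 1.17 (*Oasl2*), 1.29 (*Tmem140*), 1.06 (*Rtp4*), 1.03 (*Olfr56* and *Ifi47*) and 0.80 (*Ifitm1*), and for the class I probe set of *H2-D1* and *H2-K1* 1.54. Secreted, surface and carrier proteins gave 2.34 (*Lbp*), 2.03 (*Madcam1*), 1.95 (*Slc39a4*), 1.31 (*Slc2a6*), 1.22 (*Ntn1*), 1.08 (*Slc43a3*), 0.93 (*Slc12a7*) and 0.85 (*Cspg5*). The other higher values were 1.88 (*Nfkbie*), 1.58 (*Cdkn2b*), 1.50 (*Rsph4a*), 1.34 (*Reep1*), 1.30 (*Rgs9*), 1.09 (*Aldh3a1*), 0.995 (*Chst15*) and 0.64 (*Mir146*). The lower values were −1.21 (*Kremen1*), −1.63 (*Fosl1*), −1.82 (*Mylk2*), −1.82 (*Egr2*), −2.15 (*Ptx3*) and −2.79 (*Glycam1*).

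A further 3 probe sets without a gene symbol, outside the members compared above, also had a called difference. Probe set 10452316 had a difference of 3.12 (SE 0.207, q = 6.32e-08), larger than that of any member that passed. Its log2 signal was 7.55, 7.68 and 7.37 in untreated and 8.52, 8.60 and 8.24 in TNF-treated cells at 6 h, and 9.91, 9.42 and 9.85 against 13.80, 13.75 and 13.76 at 48 h, so that TNF-treated arrays were above untreated arrays at both times. At 6, 24, 48 and 72 h its TNF effect was 0.92, 4.90, 4.04 and 2.82. Probe set 10444830 had a difference of 1.01 (SE 0.191, q = 0.039), with TNF effects of 0.40 at 6 h and 1.41 at 48 h. Probe set 10345762 had −1.53 (SE 0.267, q = 0.0204), with a rise of 1.04 at 6 h and −0.49 at 48 h. The table used here pairs none of these 3 with a gene.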

How the results depend on the processing

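Counts are given as probe sets with a called difference, higher and then lower at 48 h (28 and 6 as reported). They were 17 and 2 at q under 0.01, 14 and 4 with only the 12 arrays, 22 and 11 after cyclic loess, 29 and 10 with gene means (probe sets of a gene averaged), 42 and 20 with the replicate block, 14 and 9 with the replicate block on 12 arrays, and 97 and 67 with the replicate block within each time, which was added after the data were seen. Array weights gave 186 and 102, but limma stopped the weights short of convergence. Of the 34 calls, 15 were kept and 19 lost with only the 12 arrays, where 3 others were added. After cyclic loess 28 were kept and 5 added, and 6 were lost. The 6 were *Rsph4a*, *Rtp4*, *Slc2a6*, *Chst15*, *Slc12a7* and *Mir146*. With the replicate block on 12 arrays 14 were kept and 20 lost, and 9 were added. The late rises (28) were 17 at q under 0.01, 13 with the 12 arrays with or without the block, 120 with array weights and 74 with the block within each time. Growing rises (0) were 1 with the 12 arrays with or without the block and with the replicate block, 23 with array weights and 14 with the block within each time. Early rises only (3) were 5 with single symbols or gene means, 8 with the replicate block, 53 with array weights and 29 with the block within each time. Fading rises (1) were 0 at q under 0.01 and with the 12 arrays with or without the block, 7 with array weights and 5 with the block within each time. Late falls (1) were 0 at q under 0.01, 2 with the 12 arrays, with an intensity trend and robust prior or without dim probe sets, 3 with single symbols, 4 with gene means, 5 after cyclic loess or with the block on 12 arrays, 11 with the replicate block, 35 with array weights and 28 with the block within each time.

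For the effects themselves (103 and 5 at 6 h, 241 and 92 at 48 h), q under 0.01 gave 2 falls at 6 h and 131 and 35 at 48 h, and the 12 arrays gave 52 and 2 at 6 h and 149 and 54 at 48 h. Array weights gave 945 and 712, and 558 and 307. The replicate block gave 171 and 28, and 416 and 219, on 12 arrays 20 falls at 6 h and 164 at 48 h, and within each time 560 and 237, and 919 and 650. Falls at 6 h were 10 without dim probe sets or with single symbols and 8 with gene means. Without 1 array at a time, the difference was higher for 15 to 30 and lower for 2 to 7, with 15 to 29 late, 0 to 1 growing, 2 to 5 early and 0 to 2 fading rises and 0 to 2 late falls, and effects at 6 h were higher for 63 to 123 and lower for 1 to 16, at 48 h higher for 129 to 267 and lower for 27 to 131. No value of a called member changed sign. Of the 34 calls, 17 were kept in all 12 fits that leave out 1 array, and 12 were lost under no setting other than the thresholds on size and q. Of these 12, 6 were tested in all settings, and 6, with a dim signal or several symbols, were absent from 1 or 2 of them. Within groups the lowest correlation of 2 arrays was 0.974 (untreated) and 0.976 (TNF) at 6 h, against 0.990 and 0.991 at 48 h. Whether fewer degrees of freedom for the spread or another cause moved the calls was not tested. Which genes pass is therefore less certain than the direction of the called members. Of the named genes without a call, *Mki67*, *Hes1*, *Prom1* and *Neurod1* changed sign in at least 1 fit that leaves out 1 array. The 3 arrays per group and the weak signals of *Mir146* and *BC023105* limit the precision of the values.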

Other observations

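Lists not described above gave few calls at either time and 0 called differences in limma. With the replicate block within each time, *Timp3* of the protease list (−0.98, q = 0.0141) and *Pgm2* of the glycogen list (−0.58, q = 0.024) were called, but neither was with the replicate block (q = 0.74 and 0.223). Of 24 inflammatory cytokines and growth factors, 1 rose at 6 h and 2 at 48 h (median difference −0.06), and of 15 toll-like receptors and their partners 2 and 2 (−0.14). Of 20 extracellular proteases and inhibitors, 1 rose at 6 h, and 1 rose and 2 fell at 48 h. The difference was above 0 in 4 (47.3% of all genes), with a median of −0.23. Of 16 caspases and other cell death genes 2 rose at 6 h and 2 at 48 h (0.10), and of 11 BCL2 family and survival genes 0 and 1 (0.01). *Birc2*, which encodes cIAP1, an ubiquitin ligase of the TNF receptor complex, had a TNF effect of 0.15 at 6 h in the brighter of its 2 probe sets and rose by 0.87 at 48 h (q = 0.00954), and its difference of 0.72 (SE 0.242) did not pass. Of 7 genes of the A1 type of reactive astrocyte 0 rose at 6 h and 1 at 48 h (0.10).

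In metabolism, 0 of 16 genes of cholesterol synthesis and uptake were called at 6 or 48 h, with differences between −0.19 and 0.09. Of 13 genes of glycogen metabolism 1 rose at 6 h and 1 fell at 48 h. The difference was above 0 in 1 (47.3% of all genes), and its median was −0.12. Of 15 genes of retinoid metabolism 1 rose at 6 h and 1 fell at 48 h (−0.13), of 13 genes of prostaglandin synthesis and its receptors 1 rose at 6 h and 1 fell at 48 h (0.004), and of 11 hyaluronan genes 1 rose at each time (−0.12).

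When genes are ranked by genomic length and the longest and shortest 20% are set apart, 6 of the 23 genes called higher with a known length were among the longest and 2 among the shortest, and of the 6 called lower 1 was in each. The mean log2 signal of the longest less that of the shortest genes changed with TNF by −0.0106 at 6 h and 0.00279 at 48 h.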
